A study of Homo sapiens with 2 samples.

Results

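The mitochondrial carriers of the SLC25 family and the proteins that bring other proteins into mitochondria were compared in Hep3B cells with and without an inhibitor of miR-19b. Genes were taken by symbol: names that start with SLC25A, TIMM or TOMM and a number, with PMPCA, PMPCB, GRPEL1, SAMM50, VDAC1, VDAC2 and VDAC3. This gave 84 genes read by 111 probes, of 18821 named genes and 29187 probes on the array. Of these genes, 46 encode carriers (58 probes), 32 belong to the import machinery or the VDAC channels (46 probes), and 6 are pseudogenes or antisense transcripts (7 probes), which are kept apart. SLC25A6 had no probe named in the annotation used here.

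Hep3B is a human hepatocellular carcinoma line with integrated hepatitis B virus. The cells received a miR-19b inhibitor (anti-miR-19b) or a control inhibitor, 90 pmol per well in both cases, and RNA was taken 24 h later. The series holds 1 Human OneArray sample per condition, called an array here. Every value describes these 2 arrays, and no test was possible. A difference of the inhibitor cannot be told apart from one between the cultures, RNA preparations or hybridizations. The study printed a P-value beside each gene it listed as lower. How these were obtained, and whether a sample sums up more than 1 hybridization, is not stated in the sources read. Of 9 hepatocyte genes, among them AFP and ALB, 9 had a brightest probe above the array median on both arrays. Of 7 genes of other cell types, 2 did (CD68 and COL1A1), while PTPRC and LYVE1 were near 0, and the summed level of the 7 was 527 with the control and 470 with anti-miR-19b. Their part in the results was not tested. On such bulk RNA, fewer cells of a type and less RNA per cell cannot be told apart.

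Nearly all mitochondrial proteins are made in the cytosol. They enter through the TOM complex of the outer membrane, and are then handed to the TIM23 complex (proteins with a cleavable presequence) or, by small TIM chaperones, to the TIM22 complex, which inserts the carriers themselves into the inner membrane. The SLC25 carriers move nucleotides, phosphate, amino acids, organic acids and cofactors across that membrane, and VDACs are the pores of the outer membrane. In liver cells the carriers serve oxidative phosphorylation, urea synthesis, gluconeogenesis and the export of citrate for lipid synthesis.

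The inhibited microRNA is shown with its relative miR-19a-3p because both share the seed (bases 2 to 8, in capitals), the part that pairs with target mRNAs. The sequences are from RefSeq (GRCh38.p14), and miR-19b-3p is encoded on chromosomes 13 and X.
hsa-miR-19b-3p: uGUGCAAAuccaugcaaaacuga
hsa-miR-19a-3p: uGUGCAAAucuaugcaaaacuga
The arrays read mRNA and not the microRNA, and target sites in the member transcripts were not searched here.

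Levels are normalized intensities on a linear scale, given throughout with the control array first and anti-miR-19b second, and each difference is a log2 ratio of anti-miR-19b over control, given in parentheses or so named. A probe is called bright where its level averaged over both arrays reached the middle value of all probes compared (an intensity of 41.4), and dim otherwise. The 2 lists differed in brightness. The import machinery was read mostly by bright probes (41 bright and 5 dim), with 30 of 32 genes having a bright probe. Of the carrier probes 33 were bright, 22 were dim and 3 were at or below 0 on the control array, so that 29 of 46 genes had a bright probe, 15 had dim probes alone and 2 had no ratio (SLC25A24 and SLC25A52).

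**Figure D1:**
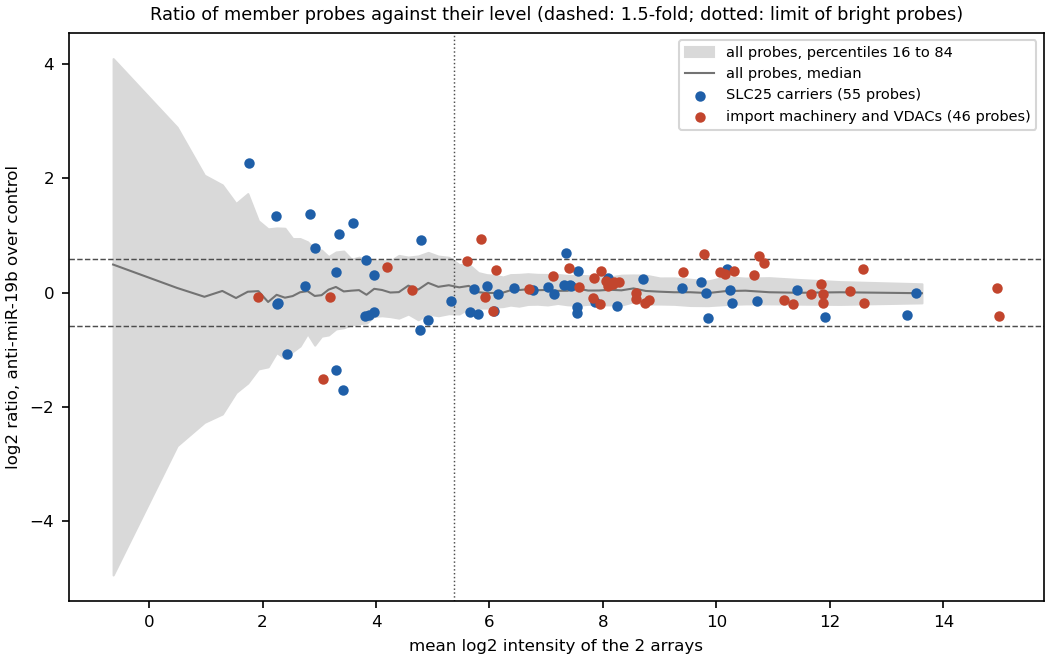
Log2 ratio of each carrier (blue) and import or VDAC probe (red) against its mean log2 intensity on the 2 arrays; the grey band spans percentiles 16 to 84 of all probes of like level, dashed lines mark 1.5-fold and the dotted line the limit of bright probes. The widest ratios belong to dim carrier probes, where the band is widest too.

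At bright probes the import genes lay higher than the carriers. The median log2 ratio was 0.15 for the 30 import and VDAC genes and -0.015 for the 29 carriers, a difference of 0.16, against 0.023 for all 9990 genes with a bright probe. Ratios were above 0 for 21 of 30 import genes and 13 of 29 carriers, and for 53.6% of all genes. The import share, 70%, was like that of other mitochondrial genes at bright probes. It was 68.6% for 70 mitochondrial ribosomal proteins and 71.2% for 66 subunits of the respiratory chain and ATP synthase. The genes of each list varied more among themselves than the lists differed, with an SD over genes of 0.29 for import and 0.25 for carriers. Over all probes, the medians were 0.11 for 32 import genes and -0.011 for 44 carriers, against 0.027 for all 17438 genes. The TIM23 complex carried much of the import median. Over the 24 import genes outside that complex it was 0.025, beside the 0.027 of all genes, and at bright probes it was 0.085 over 22 genes.

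**Figure D2:**
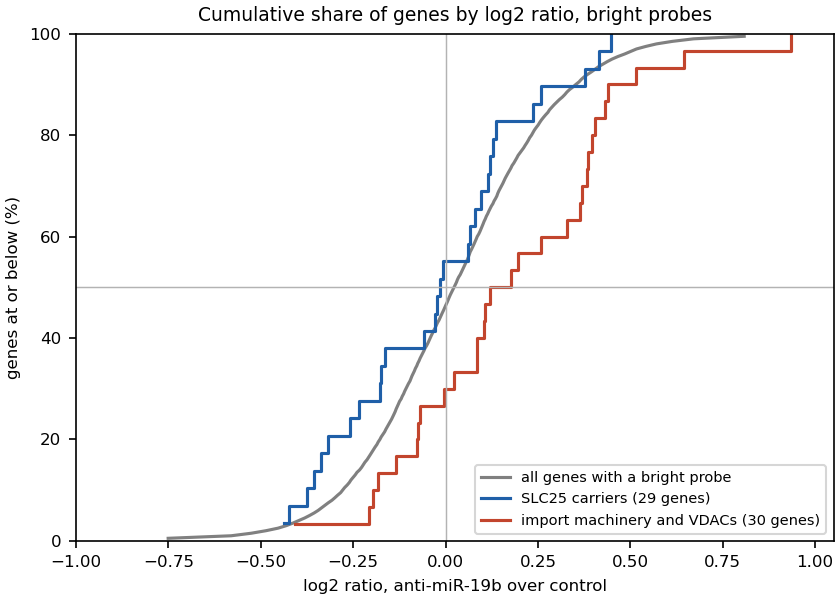
Cumulative share of genes (%) by log2 ratio of anti-miR-19b over control at bright probes, for 29 carriers, 30 import and VDAC genes and all 9990 genes. The import curve lies to the right of that of all genes over most of its length, and the carrier curve lies to the left of it over most of its length.

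Few members passed 1.5-fold at bright probes. TIMM50 and VDAC3 were over 1.5-fold higher (2 of 30 import genes, where 1.73% of all genes with a bright probe were), and none was over 1.5-fold lower (0.941% of all genes). Of the 29 carriers, none was over 1.5-fold either way. With dim probes included, 5 of 44 carriers were higher (SLC25A16, SLC25A21, SLC25A26, SLC25A41 and SLC25A43) and 4 lower (SLC25A2, SLC25A15, SLC25A23 and SLC25A53), near the 12.4% and 10.8% of all genes that were. Each of these 9 carriers was read by dim probes alone. SLC25A16, linked to coenzyme A, had 20.2 and 38.5, the S-adenosylmethionine carrier SLC25A26 had 5.83 and 9.98, and SLC25A43 had 2.95 and 7.46. Of the ATP-Mg and phosphate carriers, SLC25A41 had 1.54 and 7.46, SLC25A23 had 34.5 and 21.8, and SLC25A24 had -4.96 and 4.43. SLC25A53 was below 8 on both arrays at its 2 probes, with log2 ratios of -1.09 and -0.20. Among import genes, TOMM20L, a relative of TOMM20, was lower at a dim probe, with 14.3 and 4.97.

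A finer yardstick was the spread of the 500 probes nearest in level (percentile 16 to 84, divided by 2). Of 41 bright import probes, 15 lay over 1 such spread above the local median and 3 as far below. For all bright probes these shares were 16.6% above and 15.6% below, and for import they were 36.6% and 7.32%. Of 33 bright carrier probes the split ran the other way, with 3 above (9.09%) and 9 below (27.3%). Probes of the same gene are not independent, and this is a description of 2 arrays.

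**Figure D3:**
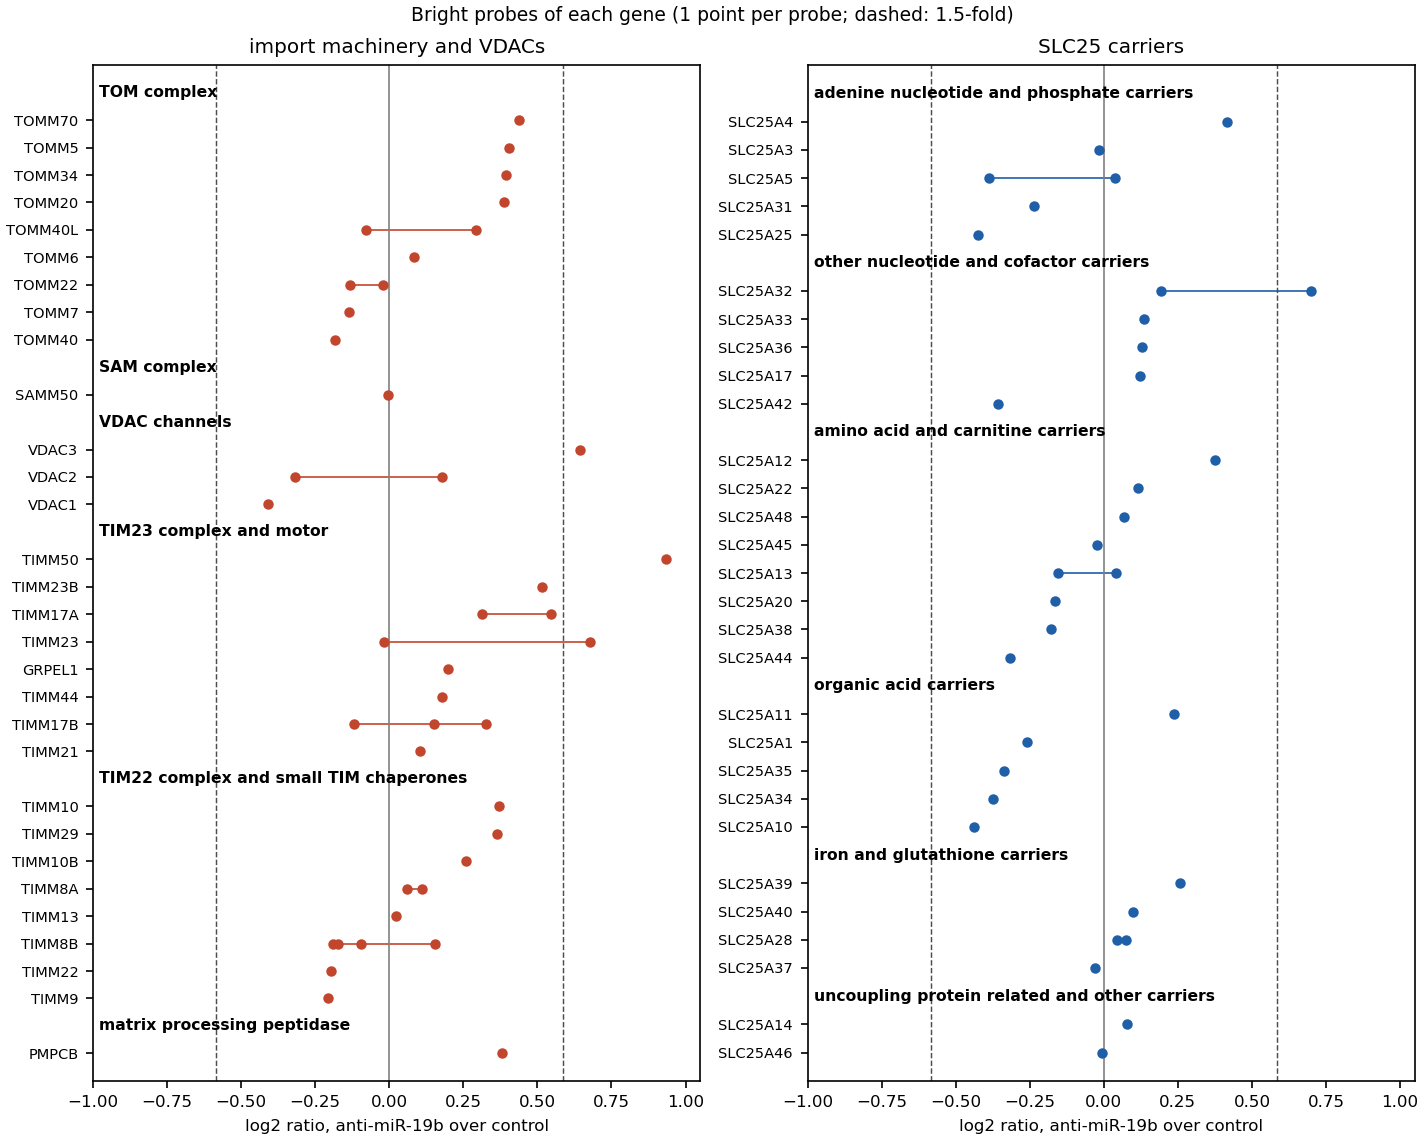
Log2 ratio of every bright probe (1 point each, joined within a gene) of the import machinery and VDACs (left) and of the carriers (right), ordered by role; dashed lines mark 1.5-fold. The genes of the TIM23 complex shown here all average above 0, and 4 of 5 organic acid carriers lie below 0.

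The TOM complex holds the receptors and the pore through which precursors enter. The receptor TOMM20 had 1110 and 1451 (0.39). The receptor TOMM70, which binds carrier precursors, went from 146 to 198 (0.44). TOMM22, the central receptor, differed little at both of its probes, 3281 against 3233 (-0.02) and 472 against 430 (-0.13). So the receptors did not share a direction of like size. The pore protein TOMM40 had 4014 and 3537 (-0.18), and its relative TOMM40L had 0.29 at one probe and -0.08 at the other. Of the small subunits that steady the complex, TOMM5 was higher with anti-miR-19b, at 5351 and 7084 (0.40, 2.09 local spreads above the median of its neighbours). TOMM6 had 30778 and 32629 (0.08) and TOMM7 had 2458 and 2238 (-0.14). TOMM34, a cytosolic cochaperone of import, had 60.6 and 79.7 (0.40). The 9 genes with a bright probe had a median of 0.11. None was over 1.5-fold.

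The TIM23 complex moves presequence proteins across the inner membrane, pulled by a chaperone motor on the matrix side. All 8 genes of this group had a mean log2 ratio above 0 at bright probes, with a median of 0.26 and a range from 0.10 to 0.94. Of their 12 bright probes, 10 were above 0, 6 lay over 1 local spread above the local median, and none lay as far below. TIMM50, the receptor of the complex, had the highest ratio of any member with a bright probe, with intensities of 41.7 and 79.8 (0.94, 3.19 local spreads above the median of its neighbours). Its control level sits at the limit of bright probes and it was read by 1 probe. TIMM23, the channel subunit, was read by 2 bright probes that differed. The first went from 698 to 1116 (0.68, above all of its 500 neighbours) and the second from 3783 to 3734 (-0.02). The near-identical copy TIMM23B had 1536 and 2195 (0.52), and these probes may not tell the 2 genes apart. TIMM17A, the partner of the channel, was higher at both probes, from 1459 to 1812 (0.31) and from 40.3 to 58.9 (0.55). TIMM17B gave 0.33, 0.15 and -0.12 at its 3 probes. GRPEL1, the nucleotide exchange factor of the motor, had 248.5 and 285 (0.20). TIMM44, which tethers the motor to the channel, had 277 and 313 (0.18), and TIMM21, which contacts the TOM complex, had 185 and 199 (0.10).

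**Figure D4:**
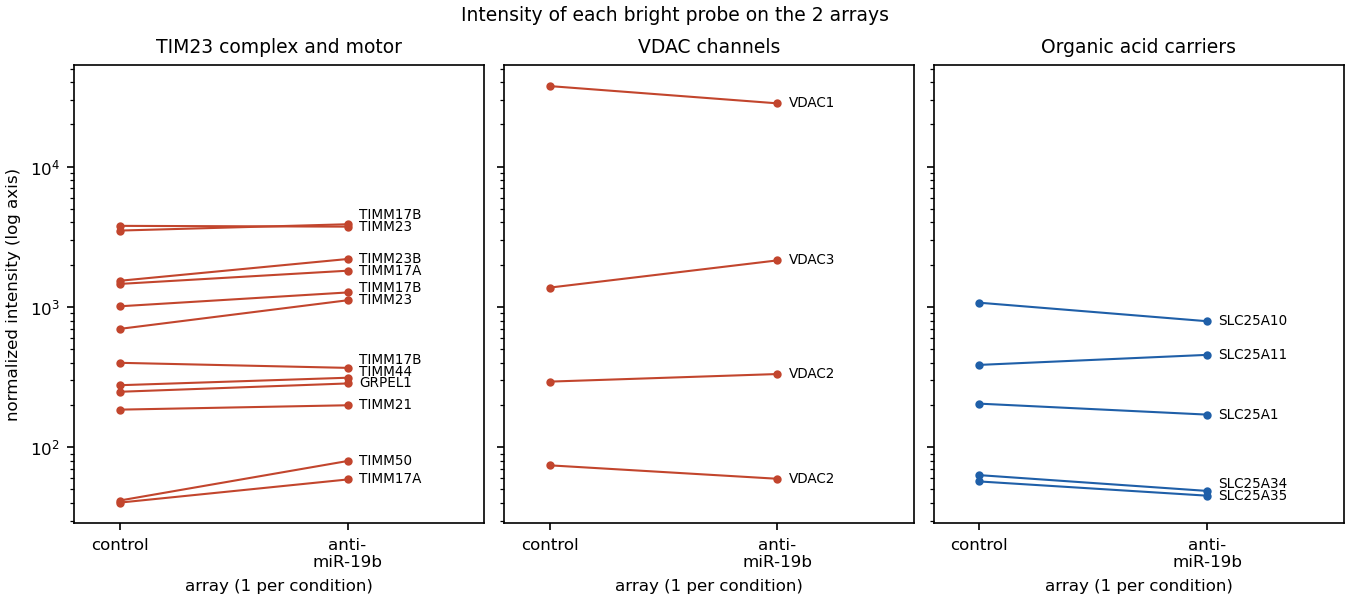
Normalized intensity (log axis) of each bright probe on the control and the anti-miR-19b array, for the TIM23 complex, the VDAC channels and the organic acid carriers, with 1 line per probe. TIMM50 and 1 probe of TIMM23 have the steepest upward lines of the first panel, VDAC1 and VDAC3 slope in opposite directions, and SLC25A11 alone slopes upwards in the last panel.

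The TIM22 route, by which carriers reach the inner membrane, was split. TIMM10, a chaperone of the intermembrane space that works with TIMM9, had 947 and 1224 (0.37). Its partner TIMM9 had 2794 and 2421 (-0.21). Thus the subunits of this chaperone pair lay on opposite sides of 0. TIMM29, a subunit of the TIM22 complex, had 598 and 771 (0.36), while the channel subunit TIMM22 itself had 264 and 230 (-0.20). TIMM10B, which docks the chaperones on the complex, had 210 and 251 at its bright probe (0.26). The chaperones TIMM13 (5184 and 5267, 0.02) and TIMM8A (bright probes at 0.11 and 0.06) were near 0. The 4 bright probes of TIMM8B ranged from -0.19 to 0.16. The median over the 8 genes was 0.054, close to that of all genes.

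VDAC3 and VDAC1, pores of the outer membrane, lay on opposite sides of 0. VDAC3 went from 1373 to 2146 (0.64, above all of its 500 neighbours), and VDAC1 from 37496 to 28247 (-0.41, at -2.32 local spreads from the local median and at percentile 0.6 of its neighbours). Each was read by 1 probe. VDAC2 gave 0.18 and -0.32 at its 2 probes. SAMM50, the core of the complex that inserts such barrel proteins into the outer membrane, had 384 and 383 (-0.0035). PMPCB, the catalytic subunit of the peptidase that removes presequences, had 219 and 285 at its bright probe (0.38) and 24.4 and 25.1 at its dim probe (0.04). Its partner PMPCA was read near the floor, at 3.88 and 3.66.

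Among the carriers, those of adenine nucleotides and phosphate are the most direct partners of ATP synthase. SLC25A5, the adenine nucleotide carrier of proliferating cells, was read by 2 bright probes. They gave 12030 and 9203 (-0.39, at -2.19 local spreads from the local median) and 2693 and 2763 (0.04). A dim probe of SLC25A5 had 7.90 and 18.5 (1.23), so that the gene mean was -0.17 at bright probes and 0.29 over all 3. SLC25A4, the heart and muscle form, had 1005 and 1340 at its bright probe (0.41) and -0.40 at a dim probe. SLC25A31, the testis form, had 331 and 281 (-0.24). The phosphate carrier SLC25A3 was alike on both arrays, at 11731 and 11611 (-0.015). SLC25A25, a calcium-regulated carrier that exchanges ATP-Mg for phosphate, had 4481 and 3341 (-0.42). Of the 5 genes of this group with a bright probe, 4 were below 0, with a median of -0.17. Over all probes the median of 7 genes was -0.015, with 3 above 0 and 4 below. These adenine nucleotide carriers are close in sequence, and each probe may read more than 1 of them.

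The organic acid carriers were the lowest group of carriers at bright probes, with a median of -0.34 over 5 genes. SLC25A10, the dicarboxylate carrier, had 1072 and 791 (-0.44, the lowest ratio of any member at a bright probe). SLC25A1, which exports citrate, had 205 and 171 (-0.26). SLC25A34 had 63.3 and 48.8 (-0.37) and SLC25A35 had 57.1 and 45.2 (-0.34), and their substrates are less well known. All 4 lay over 1 local spread below the local median and none reached 1.5-fold. The exception was SLC25A11, the oxoglutarate and malate carrier, at 386 and 455 (0.24). The oxodicarboxylate carrier SLC25A21 was read by a dim probe, at 7.17 and 14.6. Without the organic acid carriers the median of the carriers over all probes was 0.000409.

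The carriers of other nucleotides and cofactors lay mostly above 0, with a median of 0.13 over 5 genes. SLC25A32, the folate and FAD carrier, went from 128 to 207 at one probe (0.70, 2.61 local spreads above the median of its neighbours), the single carrier probe over 1.5-fold among bright ones. Its other probe was brighter and gave 791 and 905 (0.19), so that the mean of the gene, 0.45, stayed within 1.5-fold. The pyrimidine nucleotide carriers SLC25A33 (0.14) and SLC25A36 (0.13) and the peroxisomal cofactor carrier SLC25A17 (0.12) differed by less than the spread of probes of like level. SLC25A42, a carrier of coenzyme A, went the other way, from 212 to 166 (-0.36). Both probes of SLC25A52, an NAD carrier, were below 0 on the control array, and they read 39.3 and 2.58 on the anti-miR-19b array. SLC25A51, its close relative, had 5.16 and 4.55.

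The amino acid and carnitine carriers had a median of -0.041 over 8 genes. SLC25A13, the liver form of the aspartate and glutamate carrier that serves the urea cycle, differed little, at 1197 and 1230 (0.04) and at 1780 and 1599 (-0.15). SLC25A12, its relative of brain and muscle, had 166 and 215 (0.38). The glutamate carrier SLC25A22 had 0.11, the carnitine carrier SLC25A20 -0.16, and the glycine carrier SLC25A38 -0.18. SLC25A44, which carries branched-chain amino acids, had 75.5 and 60.6 (-0.32). SLC25A45 had -0.02 and the bright probe of SLC25A48 0.07. The ornithine carriers of the urea cycle were read by dim probes alone, SLC25A15 at 15.6 and 6.12 and SLC25A2 at 19.4 and 5.95. The other carriers of this group without a bright probe were SLC25A18 (8.64 and 11.0), SLC25A29 (42.3 and 38.3) and SLC25A47 (35.6 and 25.6).

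The iron carriers were close to 0. SLC25A28, a mitoferrin, had 0.08 and 0.05 at its 2 probes, and SLC25A37, the mitoferrin of red cell precursors, had -0.03. The glutathione carriers SLC25A39 and SLC25A40 had 0.26 (249.5 and 298) and 0.10 (127 and 136) at their bright probes. SLC25A14, related to uncoupling proteins, had 0.08, and SLC25A46, an outer membrane protein of mitochondrial dynamics, had 904 and 900 (-0.0064). SLC25A27 and SLC25A30, also related to uncoupling proteins, were dim, at 17.5 and 13.9 and at 13.9 and 17.3. Of the pseudogenes and antisense transcripts, 5 of 6 had a ratio, which ranged from -0.084 to 0.23, and none was over 1.5-fold.

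Probes of the same gene seldom gave the same ratio. Among 8 import genes with 2 or more bright probes, all probes lay on the same side of 0 in 3 (TIMM8A, TIMM17A and TOMM22), and in 5 they did not (TIMM8B, TIMM17B, TIMM23, TOMM40L and VDAC2). Among 4 such carriers they did in 2 (SLC25A28 and SLC25A32) and did not in SLC25A5 and SLC25A13. The same share over all genes with 2 or more bright probes was not computed. The counts can therefore not be read as a trait of these members.

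Other genes of import and of the inner membrane were read from lists of further genes, over all probes, where 12.4% of all genes were over 1.5-fold higher and 10.8% lower. For 24 further import genes (chaperones, peptidases and assembly factors), 2 were over 1.5-fold higher, both at dim probes (DNAJC19, 2.41 and 10.6, and AGK), none was lower, and the median was 0.067. HSPD1, the matrix chaperonin, had 29170 and 27866 (-0.07). HSPE1, its lid, had 0.34, 0.13 and 0.06 at 3 bright probes. MTCH1, an insertase of the outer membrane that belongs to the SLC25 family by sequence, was higher at all of its probes (0.22, 0.30 and 0.23), while its relative MTCH2 gave 0.13 and -0.11. PAM16, of the TIM23 motor, had 1490 and 1371 (-0.12), and ROMO1 of the same list had 9975 and 8381 (-0.25). Both lay below 0, unlike the means of the 8 TIM23 genes taken by symbol above. Other genes of the motor in this list lay above 0. These were GRPEL2 at a bright probe (0.06) and, at dim probes, HSPA9 (0.41), DNAJC15 (0.07) and DNAJC19 (2.14). At bright probes 11 of 19 further import genes were above 0. For 17 other inner membrane transporters 2 were higher and 2 lower (median -0.028), and for 16 genes of cristae and membrane organization none was over 1.5-fold either way (median 0.0057). Over all probes the medians were 0.15 for 76 mitochondrial ribosomal proteins and 0.064 for 78 subunits of the respiratory chain and ATP synthase, beside 0.11 for the import list. At bright probes they were 0.12 for 70 and 0.082 for 66 genes, beside 0.15 for import.

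Promoters were read for letters known from the binding sites of factors of mitochondrial genes, over 250 bases before to 50 after the RefSeq start (GRCh38.p14), on both strands. The tables held 28 import and 39 carrier promoters. They lacked the import genes VDAC3 (0.64), TOMM5 (0.40), GRPEL1 (0.20) and TIMM8B (-0.08), which are in no promoter count or median below. Of the carriers with a bright probe they lacked SLC25A32 (0.45), SLC25A35 (-0.34) and SLC25A37 (-0.03), which are left out in the same way. The ETS core CCGGAAGT, bound by the GABP factor also called NRF2, was in 6 of 28 import promoters (21.4%), 3 of 39 carrier promoters (7.69%) and 4.44% of all 27305 promoters. The NRF1 core GCGCATGCG, which overlaps its own reverse complement in the full site, was in 2 import promoters (TIMM9 and TOMM7), no carrier promoter and 2.10% of all promoters. All 6 import promoters with the ETS letters are shown. Each of these genes was above 0 at its bright probe, as were 21 of all 30 import genes with a bright probe. Capitals mark the letters, as spelled or as their reverse complement.
TOMM20 (chr1:235128842-235128869, minus strand): ttgactgggaCCGGAAGTggcgtgtgct
TOMM70 (chr3:100401176-100401203, minus strand): ttcccttaacCCGGAAGTgatttccgcc
TOMM6 (chr6:41787604-41787631, plus strand): ccggtagcagCCGGAAGTgccagaccgg
TIMM10 (chr11:57530750-57530777, minus strand): gactttcctcCCGGAAGTaacccacgtg
TIMM10B (chr11:6481445-6481472, plus strand): gcgagaggttACTTCCGGggcggcaccg
TIMM29 (chr19:10928711-10928738, plus strand): ttgggaagccACTTCCGGtaaagttggc
Their log2 ratios were 0.39, 0.44, 0.08, 0.37, 0.26 and 0.36 in this order, with a median of 0.37, against 0.094 for the 20 other import genes with a promoter in the table and a bright probe. Of the TIM23 genes 7 had a promoter in the table, and these hold no such letters in these windows. For carriers the medians were 0.057 with the ETS letters (2 genes) and -0.020 without (24 genes). With the NRF1 letters the order was the opposite for import, -0.17 for TIMM9 and TOMM7 against 0.15 for the 24 others. Over all genes with a bright probe the medians were 0.051 with the ETS letters (708 genes) and 0.021 without (7455 genes). A match is a description of the sequence and not a bound site.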

How the data were processed

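RNA of Hep3B cells was hybridized to Human OneArray with 1 dye (Cy5 in the labels, fluorescein in the methods), and the deposited file holds the normalized intensity of every probe, in part below 0. How the authors normalized and scanned is not given in the sources read. The extraction text of the labels describes tissue. The number of deposited samples, 1 per condition, limits the precision.

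Of 29187 probes, 25053 carry 1 symbol in the platform annotation, 0 several and 4134 none; 24981 were found in a RefSeq gene table (GRCh38.p14) by gene identifier, which was used to update names. Log2 ratios were taken for the 26186 probes above 0 on both arrays, and averaged over the probes of a gene. Called means past 1.5-fold. Members, role lists and alternatives were chosen with earlier results of these data known. Described in full were members over 1.5-fold at bright probes, the 8 highest and 8 lowest genes of each list, those with 2 or more bright probes, and SLC25A32 and TIMM23, which the study listed from these arrays and which are thus no independent evidence. Role groups and other genes were named by function. No p-value was computed. Recovery was tested on simulated data of this comparison: at bright probes (9990 genes), 56 of 56 genes raised and 59 of 59 lowered by 1.5 log2 units passed 1.5-fold. That shift is larger than any member ratio at bright probes (highest 0.94) and lies far past 1.5-fold. Recovery of differences of the size reported here was therefore not tested. Alternatives were median centring, quantile normalization, loess removal (fraction 0.3), bright probes, an offset of 50, the brightest probe, probes in place of genes and a 2-fold threshold. Python 3.11.15 was used with numpy 2.4.6, pandas 2.3.3, statsmodels 0.14.6 and matplotlib 3.10.9.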

Additional observations from a re-analysis of the deposited data

How the results depend on the processing

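No paired analysis was possible because only 1 sample per condition was deposited. Over the planned settings the median log2 ratio of import genes ranged from 0.085 to 0.16 and that of carriers from -0.039 to 0.037. A median counted as moved past 0.05 log2 units. The difference of the medians, 0.12 over all probes, was 0.18 with the brightest probe of each gene and 0.070 with probes in place of genes. Without the TIM23 complex, a choice made after the data were seen, the import median was 0.025. Carriers over 1.5-fold higher and lower numbered 5 and 4; both were 0 where dim probes were left out and also where 50 was added to the intensities. At 2-fold they were 3 and 2, and counted as probes 8 were higher. With bright probes 13 carriers were above 0, of fewer genes. Import genes over 1.5-fold, 2 higher and 1 lower, numbered 1 and 0 with the offset and 0 higher at 2-fold, and 0 lower with bright probes. Centring, quantile normalization and loess removal took none of 76 genes across 1.5-fold. SLC25A4 averaged near 0 from a bright probe at 0.41 and a dim probe at -0.40. The same settings changed the sign of 3, 3 and 2 genes, all with mean ratios near 0 (SLC25A4, SLC25A46, TIMM8A and TIMM13). The cause was not tested.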
